A study of Mus musculus with 13 samples.

Results

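Notch pathway genes were followed in spontaneous mammary tumors of MMTV-HER2/Neu mice and in glands free of cancer. They were taken from the table of read counts by symbol, 10 of the 24421 genes listed, and comprise the receptors Notch1, Notch2, Notch3 and Notch4, the ligands Jag1 and Jag2, the DNA-binding factor Rbpj, and the target genes Hes1, Hey1 and Nrarp. The mice, all female, were of strain FVB/N-TgN, which the labels give as (MMTV-HER2/neu) 202Mul/J, and carry rat HER2/Neu cDNA behind the long terminal repeat promoter of mouse mammary tumor virus, which is active in breast epithelium. The labels give the genotype as wild type in every sample, so the transgene is named by the strain alone, and the glands carry it as well as the tumors. Ages at collection are not stated. RNA came from 13 libraries in 5 groups, each tumor library from an individual spontaneous tumor. Primary untreated tumors (n = 3) arose in control mice on plain water, and the glands (n = 2) came from untreated mice without cancer. Primary stavudine tumors (n = 3) grew in mice drinking 1 mg/mL stavudine, which blocks reverse transcriptase as a nucleoside analog. Recurrent 17-DMAG tumors (n = 3) came back after they had disappeared under 17-DMAG, a drug against the chaperone HSP90 that was injected into the peritoneum at 20 mg/kg, 3 times per week. Recurrent 17-DMAG plus stavudine tumors (n = 2) came back in mice that received both agents. By the paper, 17-DMAG injections went on in both recurrent groups until the regrown tumors reached their end point size. Recurrence and ongoing treatment therefore cannot be told apart in comparisons with primary tumors. Stavudine was begun at 2 months of age or once tumors had appeared, and the labels do not say which applied to a given mouse. The paper describes the primary stavudine tumors as having developed in mice treated with stavudine, which places the start before the tumor in that group.

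Notch receptors are activated by ligands of the Jagged and Delta-like families on a neighboring cell. Binding exposes the receptor to cleavage by an ADAM protease and then by γ-secretase, and the freed intracellular domain enters the nucleus, joins RBPJ on DNA and turns on genes such as Hes1, Hey1 and Nrarp, the last of which dampens the signal. In the mammary gland the pathway is known for its part in luminal cell fate, and Notch4 was found as a site where mouse mammary tumor virus inserts in tumors, while in normal tissue it is best known from endothelium.

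All 10 genes are protein coding and the counts come from their exons. In GRCm38, Notch1 lies at chr2:26457903-26516663 (minus strand), Notch2 at chr3:98013527-98150361 (plus), Notch3 at chr17:32120820-32166852 (minus) and Notch4 at chr17:34564268-34588503 (plus). Jag1 lies at chr2:137081456-137116644 (minus), Jag2 at chr12:112907819-112929776 (minus) and Rbpj at chr5:53466152-53657362 (plus). Hes1 lies at chr16:30064384-30067796 (plus), Hey1 at chr3:8663359-8667256 (minus) and Nrarp at chr2:25180758-25183339 (plus). Nrarp and Notch1 are 1.275 Mb apart.

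Promoter windows from RefSeq (GRCm38.p6), running from 250 bases before a gene's start to 50 bases after it, were matched for 8 of the genes, all but Hes1 and Hey1. They were searched on both strands for TGGGAA, the core of the RBPJ recognition sequence, and no other motif was searched. Rbpj has 2 overlapping windows and the other 7 genes 1 each, and of these 9 windows the 2 of Rbpj itself were the ones that held the motif. Among 32851 windows of the whole table, 25.6% held at least 1 match and 3.79% held 2 or more, so a match says little about any single gene, and its absence says only that these letters are not in this window. The Rbpj window is shown because it held 2 matches, given in capitals, at -149 on the plus strand and at -65 on the minus strand relative to the start that the RefSeq window uses, which lies inside the gene span given above and not at its outer end. The windows of Jag1 and Jag2 are shown because these were the genes that passed the test between tumors and glands. Each is written from 5′ to 3′ on the strand of its gene.
Rbpj, chr5:53590096-53590395, plus strand: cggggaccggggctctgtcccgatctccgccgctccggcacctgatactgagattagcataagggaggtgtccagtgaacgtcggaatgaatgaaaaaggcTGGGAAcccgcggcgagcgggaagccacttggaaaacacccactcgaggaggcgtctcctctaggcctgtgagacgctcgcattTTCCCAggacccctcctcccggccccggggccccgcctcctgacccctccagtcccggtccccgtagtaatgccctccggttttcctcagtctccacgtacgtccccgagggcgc
Jag1, chr2:137116471-137116770, minus strand: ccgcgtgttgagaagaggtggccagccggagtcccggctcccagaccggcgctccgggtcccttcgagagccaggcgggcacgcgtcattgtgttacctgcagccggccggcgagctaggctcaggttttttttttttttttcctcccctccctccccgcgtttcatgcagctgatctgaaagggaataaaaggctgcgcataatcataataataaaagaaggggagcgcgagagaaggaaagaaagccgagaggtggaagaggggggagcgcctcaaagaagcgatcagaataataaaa
Jag2, chr12:112929446-112929745, minus strand: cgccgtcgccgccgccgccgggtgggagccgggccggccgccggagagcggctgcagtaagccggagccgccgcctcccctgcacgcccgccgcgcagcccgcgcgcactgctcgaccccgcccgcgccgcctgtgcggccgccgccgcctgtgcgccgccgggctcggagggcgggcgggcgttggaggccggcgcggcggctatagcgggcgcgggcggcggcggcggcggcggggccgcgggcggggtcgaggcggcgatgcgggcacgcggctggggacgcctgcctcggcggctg

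Library totals ran from 39921388 to 56887708 counts, and levels are given as CPM (counts scaled to library size with TMM factors). That factor was 0.493 in gland 2 and 0.999 to 1.12 elsewhere, so 3 counts, taken as the floor of detection, stood for 0.107 CPM in gland 2 and 0.0587 to 0.0695 CPM in the others. Gland 2 was rich in milk protein RNA, with 764699 CPM summed over 8 milk protein genes against 28058 in gland 1, whereas gland 1 held more lymphocyte RNA (B cell markers summing to 225 CPM against 4.42). A pair of tumors stood apart from the other 9. Recurrent 17-DMAG replicate 1 had the highest summed CPM of all tumors for endothelial (376), fibroblast (5731), pericyte (426) and macrophage (671) markers. Recurrent 17-DMAG plus stavudine replicate 2 had the highest sum for basal and myoepithelial (365) and skeletal muscle markers (1561) and the lowest for luminal markers (2357). By the mean log2 CPM of a list, its basal value (3.12) was below that of recurrent 17-DMAG replicate 1 (3.82). Its luminal value on that scale (6.73) was not the lowest, which was in primary stavudine replicate 3 (6.19). Where a log2 difference of the 10 genes moved much without either outlying tumor, both values are given. At least 10 of 11 luminal markers were above the floor in every library. All 12 endothelial and all 8 macrophage markers were too, so this count does not tell tissues apart. These are bulk samples, in which fewer cells of a type cannot be told from less RNA per cell.

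All 10 genes were above the detection floor in every library, with counts from 80 (Nrarp in gland 2) to 25964 (Notch1 in recurrent 17-DMAG replicate 1). Levels of different genes were compared as CPM per kilobase of exon. By the median over the 11 tumors, Hey1, a basic helix-loop-helix repressor, came first at 85.9 CPM per kb, followed by its relative Hes1 at 35.1. The receptors Notch1, Notch3 and Notch2 came next at 31.1, 27.3 and 20.5. Nrarp (6.32) and Rbpj (5.64) formed a lower tier, and Notch4 (2.71), Jag1 (2.05) and Jag2 (0.875) were at the bottom. Several steps in this order were smaller than the spread between tumors. Hes1 was above Notch1 in 7 of 11 tumors, Nrarp above Rbpj in 6 and Notch4 above Jag1 in 6. Notch3 was above Notch2, Rbpj above Notch4 and Jag1 above Jag2 in 11 of 11. In the glands the order differed. Per kb of exon, Jag1 stood at 6.87 and 9.43 CPM, above Notch4 (2.71 and 3.38) in both, and Hes1 (19.7 and 8.60) was below Notch1, Notch2 and Notch3 in both. Hey1 was first in gland 1 (47.9 CPM per kb) and below Notch3, Notch1, Jag1, Notch2 and Hes1 in gland 2 (8.14).

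The first comparison asks how tumors differ from glands without cancer. Both Jagged ligands were lower in tumors and no other gene of the 10 passed the edgeR test (2 of 10 called). Of all tested genes, edgeR called 10.4% in this comparison, 8.81% lower and 1.6% higher. DESeq2 called 5 of the 10, beside a larger share of all genes than edgeR, and its count over all genes is given further below. Jag1 was at 38.6 and 52.9 CPM in the glands, and in the tumors it ran from 6.35 through a median of 11.5 to 37.2. The groups did not overlap, although the highest tumor, recurrent 17-DMAG replicate 1, came close to the lower gland, and the next tumor was at 21.3 CPM. The difference was -1.76 on the log2 scale (SE 0.40, 95% interval -2.64 to -0.88, edgeR adjusted p = 0.0213), 3.39-fold lower in tumors. Jag2 was at 15.6 and 18.4 CPM in the glands and at 2.34, 4.47 and 13.3 as the lowest, median and highest tumor. Again no tumor reached a gland, and the highest was recurrent 17-DMAG plus stavudine replicate 2. The log2 difference was -1.76 (SE 0.47, 95% interval -2.81 to -0.71, edgeR adjusted p = 0.0409). Without both outlying tumors, the differences were -2.09 for Jag1 and -2.30 for Jag2 (adjusted p = 0.00363 and 0.00494). Both calls were lost with the replicate number as a block (-1.67 for Jag1 and -1.71 for Jag2, edgeR adjusted p = 0.0718 and 0.123) and without gland 2. Without that gland the adjusted p was 0.259 for Jag1 and 0.303 for Jag2, and Jag2 also lost its call without gland 1 or when any of 8 tumors was left out alone (adjusted p from 0.0508 to 0.0693).

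Markers of many cell types were also lower in tumors. Basal and myoepithelial markers, which mark the contractile outer layer of the gland, summed to 419 and 1111 CPM in the glands and to 44.8 to 365 CPM in tumors, and 6 of 10 were called lower, with a median log2 difference of -2.83. Endothelial markers summed to 372 and 411 CPM in the glands and to 92.6 to 376 CPM in tumors, and 4 of 12 were called lower (median -1.25). Also called lower were 7 of 8 adipocyte, 7 of 8 T cell, 5 of 5 B cell, 6 of 8 milk protein, 3 of 6 pan-leukocyte and 1 of 8 fibroblast markers. Of the luminal markers 2 of 11 were called lower, although 6 of 11 had a difference above 0 (median 0.50). No marker was called among the 6 pericyte (median 0.14), 8 macrophage (-0.33) and 8 skeletal muscle markers (-2.03). The part of these cell types in the lower Jag1 and Jag2 was not tested.

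The target genes had the opposite sign, with no call by edgeR, while DESeq2 called Hes1, Hey1 and Nrarp (adjusted p = 0.00534, 0.00732 and 0.0332). Hey1 was at 116 and 19.7 CPM in glands 1 and 2 and at 131, 208 and 282 CPM as the lowest, median and highest tumor. Every tumor was above both glands, which themselves differed widely. The log2 difference was 1.65 (SE 0.53, 95% interval 0.47 to 2.82, edgeR adjusted p = 0.0732). Hes1, a repressor related to Hey1, was at 29.0 and 12.6 CPM in the glands and at 27.6, 51.5 and 102 CPM in the lowest, median and highest tumor. Only recurrent 17-DMAG replicate 1 was below a gland. The difference was 1.33 (SE 0.39, edgeR adjusted p = 0.0541). Nrarp was at 9.80 and 2.85 CPM in the glands and at 9.04, 16.3 and 58.4 CPM in tumors, where 3 tumors overlapped gland 1 (1.49, adjusted p = 0.121). These values turned on which gland was used. Without gland 1, the log2 differences were 2.09 for Hes1, 3.47 for Hey1 and 2.68 for Nrarp. Without gland 2 they were 0.94, 0.96 and 0.96. Each of these fits rests on 1 gland.

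Among the receptors, Notch3 had the smallest adjusted p. It was at 177 and 142 CPM in the glands and at 158, 219 and 307 CPM as the lowest, median and highest tumor, a log2 difference of 0.49 (SE 0.18, edgeR adjusted p = 0.0999). Notch1 ran from 101 to 601 CPM in tumors and was 276 and 120.0 in the glands (0.66, adjusted p = 0.310). Notch2 was at 174 to 246 CPM in tumors and at 251 and 93.7 in the glands (0.32, adjusted p = 0.468). Its sign turned without gland 2 (-0.14), while without gland 1 it was 1.24. Notch1 likewise went from 0.27 without gland 2 to 1.42 without gland 1. These fits rest on 1 gland each. Notch4 (-0.24, adjusted p = 0.725) and Rbpj (0.14, adjusted p = 0.717) had log2 differences near 0, with intervals of -1.18 to 0.69 and -0.37 to 0.64. The median log2 difference over the 10 genes was 0.40, against -0.02 over all 17135 tested genes, and 3 genes (Jag1, Jag2 and Hey1) had no overlap between tumors and glands, beside 11.5% of all tested genes.

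**Figure D1:**
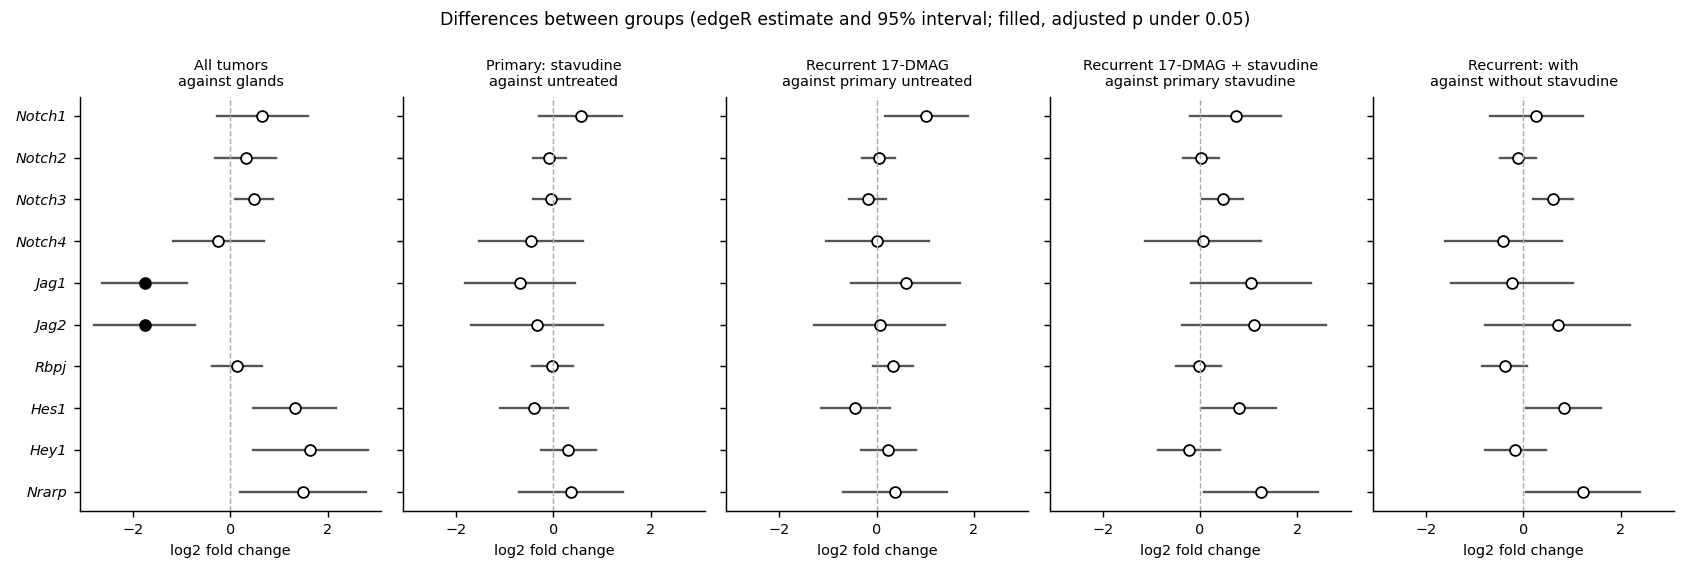
Log2 fold change from edgeR for each gene (point) with its 95% interval (line) in 5 comparisons, filled where the adjusted p is under 0.05. Jag1 and Jag2 in tumors against glands (both -1.76) are the filled points, and in the other 4 panels every point is open.

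The primary untreated tumors were also set against the glands on their own, and these 3 tumors and both glands are part of the comparison above. None of the 10 genes was called by edgeR, where 2.11% of all tested genes were, and 4 had an unadjusted p under 0.05, where 24.5% of all genes did. DESeq2 called Jag1, Jag2 and Hes1 (adjusted p = 0.0114, 0.0287 and 0.0156). It also called a larger share of all genes here than edgeR, with the count given further below. Jag1 was at 15.1, 14.7 and 8.70 CPM in these tumors (log2 difference -1.84, SE 0.53, edgeR adjusted p = 0.0814) and Jag2 at 5.20, 5.03 and 3.51 (-1.89, SE 0.63, adjusted p = 0.110). Hes1 was tightly grouped at 53.9, 59.2 and 55.2 CPM, above both glands (1.43, SE 0.43, adjusted p = 0.0906). Hey1 was at 208, 185 and 178 CPM, also above both (1.49, SE 0.58, adjusted p = 0.157). With gland 1 left out, the log2 differences were 2.19 for Hes1, 3.30 for Hey1 and 1.26 for Notch2. With gland 2 left out, they were 1.05 for Hes1 and 0.81 for Hey1. Either fit rests on 1 gland. Jag1, Jag2, Hes1, Hey1 and Notch3 (204, 224 and 216 CPM) were the 5 genes whose groups did not overlap, at a background of 39.2%. Leaving out recurrent 17-DMAG replicate 1, which enters only through the shared estimate of spread, put Jag1 past the threshold (adjusted p = 0.0208).

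The make-up of each class of transcripts, as a share of the summed CPM per kb, is given as a description. Among the 4 receptors, Notch1 made up 17.1% to 57.5% in tumors with a median of 37.7%, and 29.7% and 37.4% in the glands. Notch4 stayed at 1.21% to 4.74% in tumors. For ligands, the Delta-like genes were added to the Jagged pair. Delta-like 1 (Dll1) was the main ligand transcript in every tumor, at 60.8% to 92.7% with a median of 80.3%, and made up 57.1% and 42.4% in glands 1 and 2. Jag1 made up 23.4% and 35.4% in the glands and a median of 6.19% in tumors, where its range of 2.49% to 20.5% did not reach the glands. Jag2 was at 10.4% and 13.5% in the glands and at 1.12% to 5.85% in tumors. Among the 3 targets, Hey1 made up a median of 71.5% in tumors and was lowest in recurrent 17-DMAG plus stavudine replicate 2 (36.9%), where Hes1 made up 47.6% and Nrarp 15.4%.

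**Figure D2:**
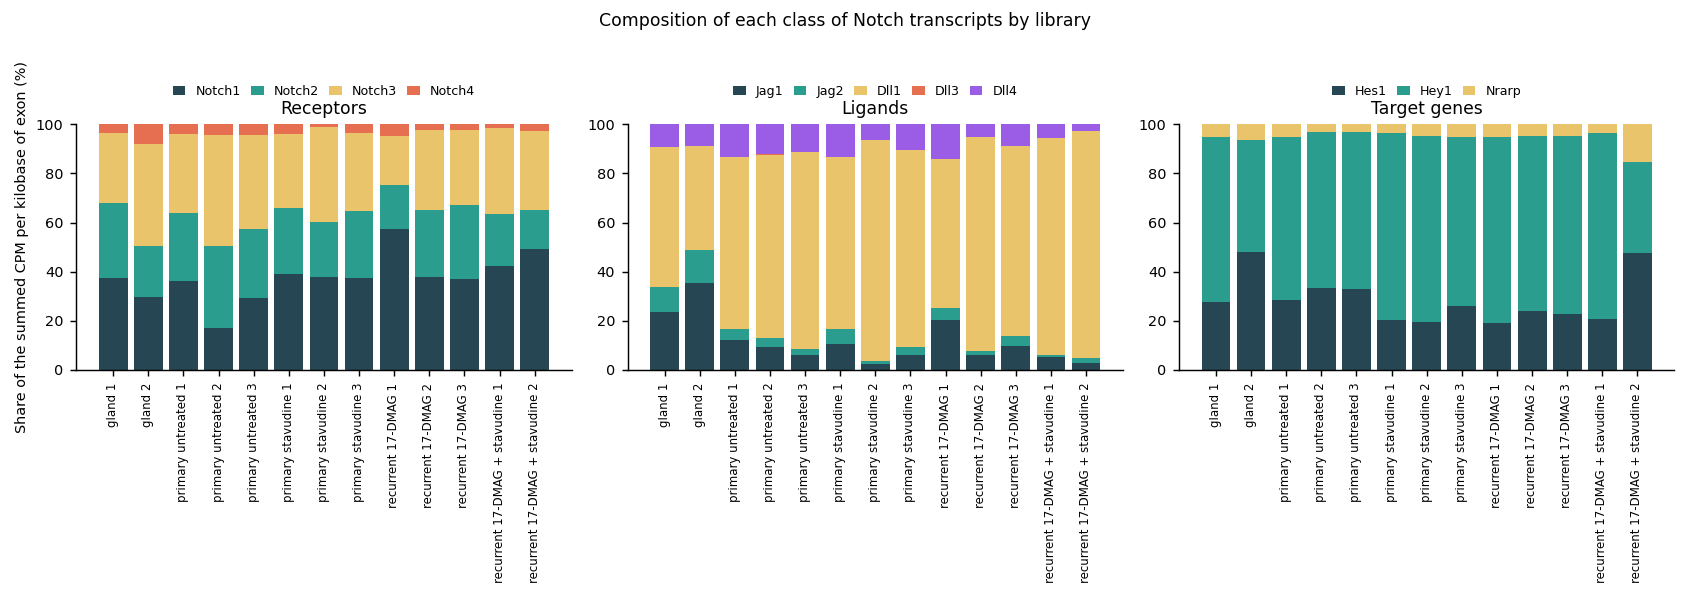
Share of the summed CPM per kilobase of exon (%, stacked bars) taken by each receptor, ligand and target gene in each of the 13 libraries. Dll1 takes 60.8% to 92.7% of the ligand sum in tumors against 42.4% and 57.1% in the glands, and the bar for Jag1 is largest in the glands.

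A list of 74 further genes of the pathway held 67 that could be tested. Of these, 5 were lower and 2 higher in tumors than in glands by edgeR, a share close to the background of 10.4% of all tested genes called, and the median log2 difference over the 67 was 0.06. Those lower included all 3 Fringe genes, whose enzymes add sugars to the receptor and tune how it responds to Delta and Jagged ligands. Lfng was at 21.9 and 29.1 CPM in the glands and at 2.36 to 16.7 CPM in tumors (log2 difference -2.25, SE 0.40, edgeR adjusted p = 0.00779). Mfng was at 17.1 and 8.53 CPM against 1.17 to 4.54 (-2.47, SE 0.39, adjusted p = 0.00495). Rfng was at 19.8 and 39.1 CPM against 15.4 to 23.6, with overlap (-0.68, SE 0.19, adjusted p = 0.0482), and was called under 4 of 20 alternatives, whereas Mfng was called under 20 and Lfng under 19 of them. Lfng and Mfng in the tumors were highest in recurrent 17-DMAG replicate 1.

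The γ-secretase genes went both ways. Psen2, a catalytic subunit, was lower in tumors, at 6.23 to 10.6 CPM against 16.0 and 17.2 in the glands (-1.10, SE 0.16, adjusted p = 0.00362). Aph1a, which helps assemble the complex, was higher, at 47.0 to 63.8 CPM against 40.3 and 37.0 (0.50, SE 0.14, adjusted p = 0.0401). Of the target genes on the list, Il2ra, a receptor chain of T cells, was lower, at 0.127 to 0.973 CPM against 5.78 and 27.0 in glands 1 and 2 (-5.52, SE 0.57, adjusted p = 0.000844). T cell markers summed to 137 CPM in gland 1 and 8.96 in gland 2, so gland 2 had more Il2ra and less of the T cell markers, and the part of T cells in Il2ra was not tested. Gata3, a regulator of luminal cells, was higher in tumors, at 315 to 526 CPM against 267 and 164 (0.94, SE 0.24, adjusted p = 0.0322). Gata3 was called under 13 and Aph1a under 8 of the 20 alternatives, and neither passed without gland 2. Against primary untreated tumors alone, Il2ra, Lfng, Psen2 and Mfng were lower (log2 differences of -5.55, -2.74, -1.0 and -2.61, edgeR adjusted p from 0.0317 to 0.0466). These calls held under 13, 8, 7 and 7 of 21 alternatives, and none of the 4 passed without gland 2, with the replicate block or when those groups alone were fitted.

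The second comparison asks whether primary tumors differed with stavudine. None of the 10 genes was called, nor was any of the 16870 genes tested (0% of all called), and none of the 10 had an unadjusted p under 0.05, where 3.76% of all genes did (DESeq2 called 17 genes, none of them among the 10). Notch1 was at 272, 101 and 197 CPM in primary untreated tumors and at 243, 295 and 306 CPM in primary stavudine tumors. The groups overlapped, with untreated replicate 2 the lowest of all 11 tumors (log2 difference 0.56, 95% interval -0.30 to 1.41). Hes1 was the only gene of the 10 without overlap, at 53.9, 59.2 and 55.2 CPM untreated and 32.9, 44.2 and 51.5 CPM with stavudine, beside 10.8% of all genes. Its difference was -0.40 (95% interval -1.11 to 0.30). The intervals were narrowest for Notch2 (-0.42 to 0.25), Notch3 (-0.42 to 0.33) and Rbpj (-0.44 to 0.39), and widest for Jag2 (-1.69 to 1.02), which bounds what these libraries could show.

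The third comparison asks what differs in tumors that regrew under continued 17-DMAG without stavudine. Again neither the 10 genes nor any other was called by edgeR (0% of 16870 genes, 61 genes with DESeq2), and the comparison shares its 3 primary untreated tumors with the previous one. Notch1 alone had an unadjusted p under 0.05 (0.0249), where 9.69% of all genes did. It was at 601, 306 and 258 CPM in recurrent 17-DMAG tumors and at 272, 101 and 197 CPM in primary untreated tumors. The groups overlapped, and the values farthest from the rest were those of 1 high recurrent tumor and 1 low primary tumor. The log2 difference was 1.02 (SE 0.38, 95% interval 0.16 to 1.88, edgeR adjusted p = 0.509), and it was 0.57 without recurrent 17-DMAG replicate 1. Hes1 was at 27.6, 51.7 and 46.5 CPM, all below the primary untreated tumors (-0.44, edgeR adjusted p = 0.589, and -0.19 without recurrent 17-DMAG replicate 1), at a background of 15.1% of genes without overlap.

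Several of the genes were much higher in replicate 1 of this group than in its other tumors. Jag1 was at 37.2 CPM there and at 9.85 and 11.5 in the other recurrent 17-DMAG tumors, beside 8.70 to 15.1 in the primary untreated tumors. Its log2 difference of 0.59 became -0.26 without that tumor. Notch4 was at 34.4 CPM against 13.2 and 11.8 (0.01, and -0.63 without it). Rbpj was at 58.5 CPM against 42.8 and 40.2, with primary untreated tumors at 41.0, 34.7 and 35.0 (0.34, and 0.18 without it).

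The fourth comparison makes the same contrast under stavudine, with 2 recurrent tumors. None of the 10 genes was called by edgeR, and none of all genes (0%), while DESeq2 called 331 genes and none of the 10. Notch3, Hes1 and Nrarp had an unadjusted p under 0.05, where 10.1% of genes did, and Notch1, Notch3 and Jag1 had no overlap, where 35.3% of genes had none. Notch3 was at 307 and 273 CPM in recurrent 17-DMAG plus stavudine tumors and at 158, 255 and 219 in primary stavudine tumors. Both recurrent tumors were above all 3 primary ones (log2 difference 0.47, SE 0.19, edgeR adjusted p = 0.466). Notch1 was at 442 and 490.5 CPM against 243, 295 and 306, again with every recurrent tumor above (0.73, SE 0.42, adjusted p = 0.553).

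Hes1 and Nrarp were high in replicate 2 of this group and not in replicate 1. Hes1 was at 45.5 and 102 CPM against 32.9, 44.2 and 51.5 in primary stavudine tumors, and Nrarp at 14.2 and 58.4 CPM against 9.58, 18.1 and 18.3. Replicate 1 lay within the primary range for both. The log2 differences were 0.79 for Hes1 and 1.25 for Nrarp (edgeR adjusted p = 0.491 and 0.478), and without replicate 2 they were 0.08 and -0.11. For Jag2, at 2.42 and 13.3 CPM, the difference of 1.10 became -0.60. Hey1 went the other way, at 272 and 131 CPM against 202, 282 and 225 (-0.23, adjusted p = 0.777), with replicate 2 the lowest of the 11 tumors.

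The fifth comparison sets the recurrent tumors with stavudine against those without. Notch3 was at 307 and 273 CPM with stavudine and at 176, 220.1 and 177 CPM without. No value overlapped, as was so for 21.5% of all genes. The log2 difference was 0.61 (SE 0.19, 95% interval 0.19 to 1.03, edgeR adjusted p = 0.435), and it was 0.68 without the outlying tumor with stavudine and 0.55 without the outlying tumor of the other group. Hes1 (0.83) and Nrarp (1.23) also had unadjusted p under 0.05, where 7.84% of genes did, and without recurrent 17-DMAG plus stavudine replicate 2 they were 0.11 and -0.13. No gene of the 10 was called, and edgeR called none of all genes (0%, and 266 genes with DESeq2, none of them among the 10).

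Pooling both arms gave 5 recurrent against 6 primary tumors, the same libraries as in the comparisons above. Notch1 was at 258, 442 and 601 CPM as the lowest, middle and highest recurrent tumor, and the primary tumors ran from 101 to 306. The 2 recurrent tumors of the lower end, both without stavudine, overlapped the primary range. The log2 difference was 0.88 (SE 0.28, 95% interval 0.24 to 1.51, unadjusted p = 0.0121, edgeR adjusted p = 0.313), and it was 0.61 without both outlying tumors. Marker lists had positive differences as well, with no gene called, in 6 of 6 pan-leukocyte (median 0.73), 8 of 8 macrophage (0.73), 8 of 8 fibroblast (1.64) and 10 of 10 basal and myoepithelial markers (1.03). Pan-leukocyte markers summed to 60.5 to 75.7 CPM in the primary and 75.2 to 206 CPM in the recurrent tumors, and their part in Notch1 was not tested. Nrarp followed with 0.81 (SE 0.35, adjusted p = 0.361), which became 0.20 without both. All 10 genes had a log2 difference above 0 here, with a median of 0.17 against 0.00 over all genes. It was very small for Hey1 (0.004), Notch2 (0.03) and Notch4 (0.04). The sign turned for Hey1 under 9 of 17 alternatives, for Notch4 under 5, for Jag2 and Hes1 under 2 each and for Notch2 under 1. None of the 10 genes was free of overlap, where 1.34% of all genes were. None was called (0% of all genes with edgeR, 410 genes with DESeq2), and 13.6% of all genes had an unadjusted p under 0.05.

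The recurrence difference was compared between the arms as an interaction, and none of the 10 genes was called (0% of all genes, 189 genes with DESeq2, none of them among the 10). Hes1 had the largest value among the 10, with a recurrence difference of -0.44 without stavudine and 0.79 with it (interaction 1.23, SE 0.47, edgeR adjusted p = 0.593). For Notch3 the recurrence differences were -0.19 and 0.47 (interaction 0.65, SE 0.25, adjusted p = 0.600). Without both outlying tumors the interaction was 0.27 for Hes1 and 0.65 for Notch3. Unadjusted p was under 0.05 for these 2 genes and for 7.84% of all genes.

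The 10 genes varied to very different degrees across tumors. The SD of log2 CPM over the 11 tumors was 0.17 for Notch2, which was larger than in 16.7% of the tested genes, 0.26 for Rbpj, 0.28 for Notch3 and 0.32 for Hey1, all below the median gene (0.37). It was 0.48 for Hes1 and 0.61 for Notch4. Notch1 (0.69), Jag1 (0.71), Nrarp (0.74) and Jag2 (0.74) exceeded 74.7% to 77.0% of the tested genes. The extreme values often belonged to the pair of outlying tumors. Recurrent 17-DMAG replicate 1 was the highest or lowest of the 11 tumors for 5 of the 10 genes, and for 49.4% of all tested genes, which is close to its rate among the 10. Recurrent 17-DMAG plus stavudine replicate 2 was highest or lowest for 6 of the 10 genes and for 27.0% of all genes. It held the highest Jag2, Hes1 and Nrarp and the lowest Notch2, Rbpj and Hey1. Against the median of the other 9 tumors, its Jag2 was 3.67 times, its Nrarp 3.58 times and its Hes1 1.99 times as high, and its Hey1 was 0.583 times as high.

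Pairwise correlations of log2 CPM over the 11 tumors are given as a description, since the points share libraries and, within groups, treatment. Jag1 and Jag2 had Pearson's r of 0.75, and 0.55 over the 9 tumors left without the outlying pair. Among the 3 targets, r depended on the outlying pair. Hes1 and Nrarp had r = 0.67 over 11 tumors and 0.09 over 9, Hes1 and Hey1 had -0.45 and -0.29, and Hey1 and Nrarp had -0.32 and 0.76. Hey1 was low where Jag2 was high (-0.88 over 11 and -0.71 over 9) and where Notch4 was high (-0.66 and -0.83). Hey1 had r of -0.03 with Notch1 over 11 tumors and 0.75 over 9, so this value rested on which tumors were included. Rbpj and Hes1 had -0.74 and -0.08.

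**Figure D3:**
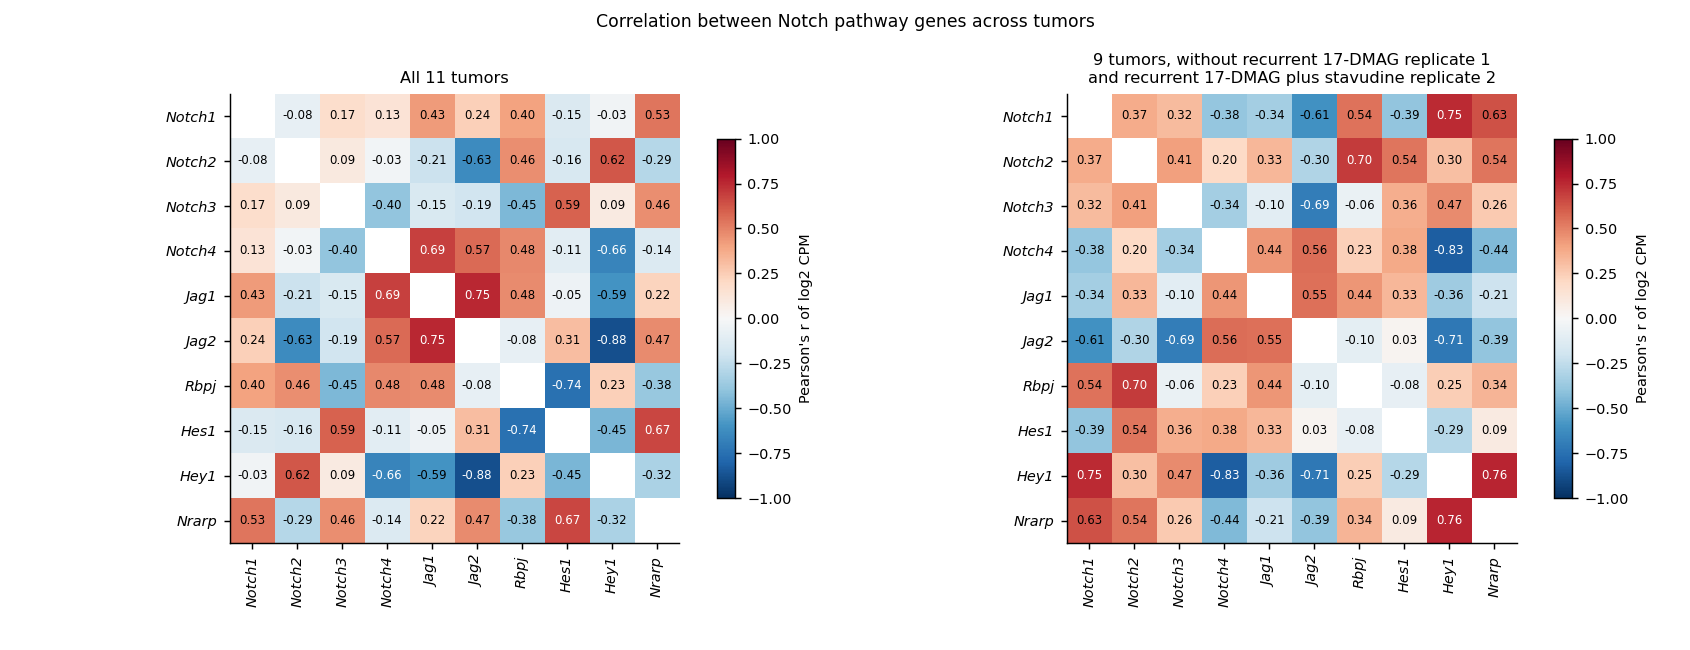
Pearson's r of log2 CPM for each pair of the 10 genes (color scale from -1 to 1, value printed) over 11 tumors (left) and over the 9 tumors without recurrent 17-DMAG replicate 1 and recurrent 17-DMAG plus stavudine replicate 2 (right). Hey1 with Jag2 stays negative in both (-0.88 and -0.71), and Hey1 with Notch1 goes from -0.03 to 0.75.

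Across all tumors Jag1 and Jag2 had high correlations with markers of vascular and basal cells, and Notch4 with those of vascular cells. For Jag1 they were also high with other marker scores. Over the 11 tumors Jag1 had r of 0.93 with the endothelial score, 0.91 with the basal and myoepithelial score and 0.90 with the pericyte score, where a score is the mean log2 CPM of a marker list. Over the 9 tumors these were 0.75, 0.75 and 0.82. Jag2 had r of 0.79 with the endothelial score over 11 tumors and 0.78 over 9. With the basal and myoepithelial score it had 0.75 and 0.50, and with the B cell score 0.31 and 0.68. Notch4 had 0.79 and 0.66 with the endothelial score, but 0.50 and 0.12 with the basal and myoepithelial score. Hey1, which was low where Jag2 and Notch4 were high, had r of -0.65 and -0.61 with the endothelial score. With the pericyte score Hey1 had -0.65 and -0.51. With the fibroblast score, r over 11 and over 9 tumors was 0.76 and 0.46 for Jag1, 0.54 and 0.18 for Jag2, and 0.25 and -0.28 for Notch4. Jag1 also had r of 0.845 with the macrophage and 0.73 with the pan-leukocyte score over 11 tumors (0.43 and 0.16 over 9). All 3 of the endothelial, basal and pericyte scores had their highest tumor value in recurrent 17-DMAG replicate 1, and the part of these cells in the levels of these genes was not tested. Over the 11 tumors Notch1 had its highest r among the marker scores with pan-leukocyte markers (0.75, and 0.65 over 9). This rank did not hold over the 9 tumors, where r was 0.84 with the T cell score (0.34 over 11). With the B cell score it was -0.82 over 9 and -0.51 over 11.

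**Figure D4:**
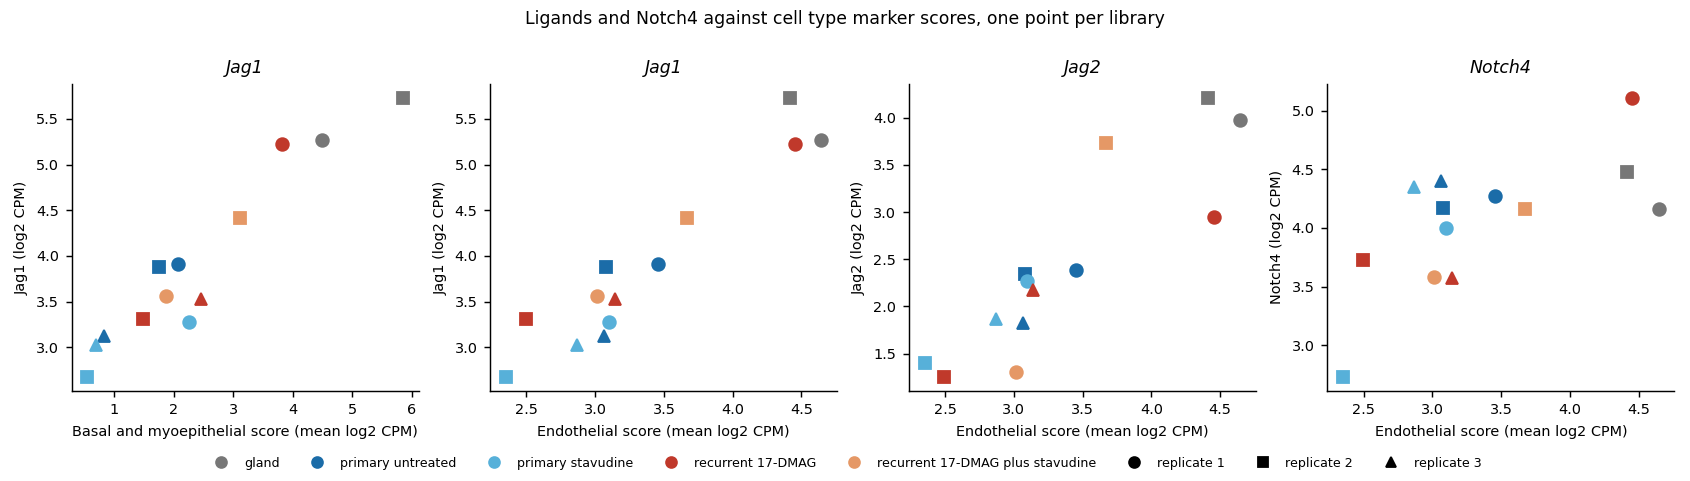
Log2 CPM of Jag1, Jag2 and Notch4 (y axes) against the mean log2 CPM of basal and myoepithelial or endothelial marker genes (x axes), with 1 point per library, color for the group and shape for the replicate. Glands (gray) and recurrent 17-DMAG replicate 1 (red circle) lie at the upper right for Jag1, and over the 11 tumors r is 0.91, 0.93, 0.79 and 0.79 from left to right.

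For each gene the 3 most similar genes by Pearson's r over the 11 tumors were taken from the 12691 genes whose log2 CPM averaged 1 or more, again as a description. Notch4 was closest to Cd93 (r = 0.947), Kcne3 (0.927) and the endothelial transcription factor Erg (0.926). Jag1 was closest to Zfp703 and the matrix genes Sparc and Col6a1 (0.978, 0.978 and 0.974), and Jag2 to Tbx2, the caveolae gene Cav1 and Dlst (0.949, 0.931 and 0.916). Notch1 was closest to Alpl, which encodes tissue-nonspecific alkaline phosphatase (0.982), then Ttc39b (0.949) and Noc2l (0.941). For Hey1 they were Spata13, Susd3 and the corepressor Tle1 (0.959, 0.947 and 0.946), and for Rbpj they were Cdyl, Ccdc141 and Mybl2 (0.961, 0.950 and 0.948). For Hes1 they were Zfp580, Pcnx and Kctd13 (0.944, 0.938 and 0.927), where Spearman's rho was 0.636 for Zfp580, and for Nrarp they were Zak, Atic and Gm16159 (0.946, 0.941 and 0.934). Notch2 was closest to Tbc1d10a (0.907) and Notch3 to Cyp4f17 (0.942).

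Among the 67 other pathway genes no contrast between tumor groups gave a call with edgeR. An unadjusted p under 0.05 was found for 4 of them with stavudine in primary tumors (3.76% of all genes), for 6 on recurrence without stavudine (9.69%), for 8 on recurrence under stavudine (10.1%) and for 10 between the recurrent groups (7.84%). DESeq2 called 2 on recurrence under stavudine and 4 between the recurrent groups, and none in the first 2 of these contrasts. Those named had the smallest unadjusted p without overlap. Hes7, a target gene near the detection floor, had 6 counts in each recurrent 17-DMAG tumor and 30, 36 and 52 in the primary untreated tumors (log2 difference -2.57, SE 0.42, edgeR adjusted p = 0.509), where the primary stavudine tumors had 16, 18 and 20. Dtx1, an E3 ligase that acts on Notch, was at 6.02, 4.47 and 7.20 CPM in recurrent 17-DMAG tumors against 9.26, 14.4 and 12.8 (-1.06, adjusted p = 0.509). Mib1, the ligase that lets ligands be taken up, and the glucosyltransferase Poglut1 had smaller differences there (-0.41 and -0.24). In primary tumors, stavudine against none gave 0.62 for the deacetylase Hdac1, -0.26 for the fucosyltransferase Pofut1 and -1.01 for Hes7 (edgeR adjusted p = 1 for each).

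In recurrent 17-DMAG plus stavudine tumors, Neurl1b, a ligase that acts on ligands, was at 8.04 and 7.22 CPM, the lowest values of the 11 tumors, against 16.9, 15.3 and 15.9 in primary stavudine tumors (log2 difference -1.07, SE 0.23, edgeR adjusted p = 0.292) and 14.8, 18.9 and 23.4 in recurrent 17-DMAG tumors (-1.31, SE 0.24, adjusted p = 0.166). The corepressor Cir1 was at 24.4 and 17.1 CPM against 29.0, 34.4 and 30.5 in primary stavudine tumors (-0.59, edgeR adjusted p = 0.398), and Rfng at 21.0 and 23.6 against 16.5, 17.5 and 16.6 (0.41, adjusted p = 0.401). Against recurrent 17-DMAG tumors, Dll1 was at 131 and 456 CPM where those had 70.4, 88.6 and 59.3 (2.02, SE 0.57, adjusted p = 0.389). The corepressor Tle2 was at 94.9 and 178 CPM where they had 32.0, 63.2 and 61.6 (1.39, adjusted p = 0.328). For Dll1 and Tle2 the higher value was that of the outlying replicate 2, without which the differences were 0.84 and 0.86. Without it, Cir1 against primary stavudine tumors was -0.36, and Neurl1b was -1.0 and -1.25 in the 2 contrasts.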

How the data were processed

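RNA was measured in 13 libraries of mouse tissue, 11 tumors and 2 glands. The deposited values were counts of reads per gene without normalization. The authors prepared strand-specific libraries from total RNA depleted of ribosomal RNA, and the submitters' processing notes name bcl2fastq 2.20, STAR, featureCounts from Subread 1.6.2 and the builds mm10 and GRCm38; the strand setting and the treatment of reads with several hits are not given in the sources used here.

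Groups and replicate numbers were taken from the labels. Groups were compared with edgeR 4.0.16 in R 4.3.3 (filterByExpr, TMM factors, robust quasi-likelihood test, two-sided), with 17135 genes over 13 libraries for contrasts with glands and 16870 genes over 11 tumors for the rest. The biological coefficient of variation was 0.431 and 0.402. P-values were adjusted over all tested genes of a contrast by Benjamini and Hochberg, with 0.05 as the threshold of a call. They weigh a difference between groups against the spread between samples within groups, estimated over all groups of the fit. SE was taken as the log2 fold change divided by the root of F. CPM used the TMM factors of all 13 libraries, log2 CPM a prior count of 2, and exon lengths the GENCODE vM21 basic annotation. With these totals counting error was small beside the spread between tumors, and values near the floor are limited by both.

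The 10 genes were named in every contrast. Of 74 other pathway genes, those called were named, and where fewer than 4 were called, up to 4 with an unadjusted p under 0.05 and no overlap between groups (for the interaction, by p alone). The genes followed, the lists and the contrasts were chosen with earlier results of these data known. Alternatives were RLE size factors, DESeq2 1.42.0, limma 3.58.1 voom, no filter on low counts, a fit of only the groups compared, the replicate number as a block, leaving out each library, leaving out milk, adipocyte and muscle marker genes and, chosen after seeing the data, leaving out both outlying tumors. No 2 libraries of the same group were the same by a chi-square test of their counts, and pairs from different groups were not compared in this way. The test was checked on simulated counts. Values of 1 gene that the naming rule takes are not reported here. Protein sequences were not used here.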

Additional observations from a re-analysis of the deposited data

Results flagged for a closer look

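Among the 77 tested genes of the pathway, 3 had differences in opposite directions with every library on its own side, and 2.91% of all 16870 tested genes had such an arrangement. For Rfng and Psen2 it was the recurrence difference, opposite between the arms without and with stavudine (2.04% of all genes), and for Psen2 and Hes7 the stavudine difference, opposite between primary and recurrent tumors (1.59%). These 3 genes were picked by this arrangement, which their interaction values share. Rfng, a Fringe glycosyltransferase, was lower in each recurrent 17-DMAG tumor (15.9, 15.4 and 16.7 CPM) than in any primary untreated tumor (17.3, 19.4 and 20.8 CPM), and higher in both recurrent 17-DMAG plus stavudine tumors (21.0 and 23.6 CPM) than in any primary stavudine tumor (16.5, 17.5 and 16.6 CPM). The interaction was 0.679 on the log2 scale (edgeR unadjusted p = 0.00368, adjusted p = 0.457). Psen2, a catalytic subunit of γ-secretase, had the same arrangement, and also opposite directions for stavudine in primary and recurrent tumors (interaction 0.695, unadjusted p = 0.0330, adjusted p = 0.607). Its values were 7.73, 9.48 and 7.66 CPM in primary untreated, 7.07, 6.40 and 7.36 in primary stavudine, 6.23, 7.46 and 7.03 in recurrent 17-DMAG, and 7.86 and 10.6 in recurrent 17-DMAG plus stavudine tumors.

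Hes7, a target gene, was lower with stavudine in primary tumors and higher with it in recurrent tumors, with 30, 36 and 52 counts in primary untreated, 16, 18 and 20 in primary stavudine, 6 in each recurrent 17-DMAG, and 15 and 18 in recurrent 17-DMAG plus stavudine tumors. The interaction was 2.32 (edgeR unadjusted p = 0.00346, adjusted p = 0.452). By the naming rule, Neurl1b (-1.17) and Tle2 (1.47) followed among interactions, with adjusted p of 0.457 and 0.534. Without recurrent 17-DMAG plus stavudine replicate 2 the interactions were 0.55 for Rfng, 0.43 for Psen2, 2.11 for Hes7, -1.12 for Neurl1b and 0.91 for Tle2. None of these passed the correction with edgeR, while DESeq2 called Rfng (0.65, adjusted p = 0.0207) and Neurl1b (-1.19, adjusted p = 0.0351).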

How the results depend on the processing

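Counts of calls differed between fits. With DESeq2 the calls over all genes were 2352 for primary untreated tumors against glands (edgeR 361), 3242 for all tumors against glands (edgeR 1785), 17 for stavudine in primary tumors (edgeR 0), 61 for recurrence without stavudine (edgeR 0), 331 for recurrence under stavudine (edgeR 0), 266 for stavudine in recurrent tumors (edgeR 0), 410 for recurrence over both arms (edgeR 0) and 189 for the interaction (edgeR 0). Of the 10 genes, DESeq2 called 3 in primary untreated tumors against glands (edgeR 0) and 5 in all tumors against glands (edgeR 2), and of the other pathway genes 7 for primary untreated tumors against glands, 12 for all tumors against glands, 2 for recurrence under stavudine, 4 for stavudine in recurrent tumors, 2 for recurrence over both arms and 2 for the interaction. With the replicate number as a replicate block, all genes called were 4 for primary untreated tumors against glands and 371 for all tumors against glands, with 0 of the 10 genes in each and 0 and 4 of the other pathway genes. Under the block Jag1 (-1.67) and Jag2 (-1.71) in all tumors against glands had adjusted p of 0.0718 and 0.123. Same-numbered tumors of different groups did not deviate together more than others (r from -0.295 to 0.222 over 15 pairs, 3 above 0.1, against -0.366 to 0.369 over 30 pairs with different numbers). The deviations were taken from means of very few libraries, which ties these r to each other. They cannot settle whether the numbers pair the samples. A fit of only the groups compared gave 0 calls for primary untreated tumors against glands, 0 of them among the other pathway genes, and 2 for recurrence under stavudine. Without both outlying tumors, calls over all genes were 1025 for primary untreated tumors against glands, 2608 for all tumors against glands, 8 for recurrence under stavudine, 5 for stavudine in recurrent tumors and 5 for recurrence over both arms, and 3 of the 10 genes were called in primary untreated tumors against glands.

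Leaving out 1 library at a time, calls over all genes ran from 0 to 3381 for primary untreated tumors against glands, from 535 to 4255 for all tumors against glands, from 0 to 1 for recurrence without stavudine, from 0 to 100 for recurrence under stavudine, from 0 to 141 for stavudine in recurrent tumors, from 0 to 6 for recurrence over both arms and from 0 to 77 for the interaction, with the most calls against glands when gland 1 was left out. Calls among the 10 genes ran from 0 to 3 and from 0 to 5 in the 2 comparisons with glands, and among the other pathway genes from 0 to 18 for primary untreated tumors against glands, from 3 to 20 for all tumors against glands, from 0 to 1 for recurrence under stavudine and from 0 to 1 for stavudine in recurrent tumors. The fewest calls for all tumors against glands came without gland 2. No alternative called any of the 10 genes between tumor groups.

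Of the values of the 10 genes under alternatives, 1334 kept their direction and side of the threshold, 22 passed it anew, 13 lost it and 101 changed sign. Where leaving out 1 library, or both outlying tumors, turned a sign, the log2 difference had the ranges that follow. Primary untreated tumors against glands gave -0.447 to 0.698 for Notch1, -0.11 to 1.26 for Notch2, -0.159 to 0.218 for Notch4 and -0.221 to 0.606 for Rbpj. All tumors against glands gave -0.137 to 1.24 for Notch2, -0.484 to 0.00816 for Notch4 and -0.153 to 0.685 for Rbpj. Stavudine in primary tumors gave -0.207 to 0.00889 for Notch2, -0.195 to 0.141 for Notch3 and -0.0678 to 0.0722 for Rbpj. Recurrence without stavudine gave -0.63 to 0.277 for Notch4, -0.257 to 0.944 for Jag1 and -0.418 to 0.425 for Jag2. Recurrence under stavudine gave -0.264 to 0.239 for Notch2, -0.295 to 0.398 for Notch4, -0.601 to 1.84 for Jag2, -0.321 to 0.208 for Rbpj, -0.857 to 0.199 for Hey1 and -0.112 to 1.93 for Nrarp. Stavudine in recurrent tumors gave -0.395 to 0.108 for Notch2, -0.741 to 0.249 for Notch4, -0.734 to 0.629 for Jag1, -1 to 1.45 for Jag2, -0.684 to 0.0334 for Rbpj, -0.11 to 1.28 for Hes1, -0.797 to 0.258 for Hey1 and -0.25 to 1.9 for Nrarp. Recurrence over both arms gave -0.0974 to 0.183 for Notch2, -0.451 to 0.206 for Notch4, -0.509 to 0.967 for Jag2, -0.165 to 0.419 for Hes1 and -0.297 to 0.296 for Hey1. The interaction gave -0.64 to 0.154 for Notch1, -0.334 to 0.169 for Notch2, -0.315 to 0.679 for Notch4, -0.0703 to 1.29 for Jag1, -0.691 to 1.76 for Jag2, -0.685 to 0.0323 for Rbpj and -0.621 to 1.53 for Nrarp.

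With the replicate block, signs turned for Notch1 (0.00233) in primary untreated tumors against glands, Notch4 (-0.0614) in recurrence without stavudine, Hey1 (-0.00589) in recurrence over both arms and Notch2 (0.00459) in the interaction. With limma voom, they turned for Notch4 (-0.18) and Jag2 (-0.0855) in recurrence without stavudine and Notch4 (-0.0032) and Hey1 (-0.0415) in recurrence over both arms. With only the groups compared, the sign turned for Rbpj (0.000512) in stavudine in primary tumors. Without both outlying tumors, signs turned for Rbpj (0.00108) in stavudine in primary tumors, Notch4 (-0.629), Jag1 (-0.257) and Jag2 (-0.418) in recurrence without stavudine, Notch4 (-0.272), Jag2 (-0.601), Rbpj (0.208), Hey1 (0.199) and Nrarp (-0.111) in recurrence under stavudine, Notch2 (0.05), Jag1 (0.142), Jag2 (-0.493), Rbpj (0.0334), Hes1 (-0.11), Hey1 (0.126) and Nrarp (-0.25) in stavudine in recurrent tumors, Notch4 (-0.451), Jag2 (-0.509) and Hes1 (-0.0523) in recurrence over both arms and Notch1 (0.0774), Notch2 (0.111), Jag2 (-0.182), Rbpj (0.0323) and Nrarp (-0.621) in the interaction.

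Precision here was limited by the number of libraries, 2 in the glands and in the recurrent 17-DMAG plus stavudine group. With depths of 39921388 counts or more, counting error matters only near the floor, as for Hes7. The cause of these changes was not tested.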

Other observations

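Some genes of the pathway list took unusual values in a single tumor, and were picked out after their values were seen. Numb, an inhibitor of Notch that is handed to 1 daughter cell in asymmetric division, was at 135 CPM in recurrent 17-DMAG replicate 1 and at 391 to 668 CPM in the other 10 tumors, with the glands at 276 and 125 CPM. Ccnd1, the cyclin of early G1, was at 745 CPM in recurrent 17-DMAG plus stavudine replicate 2 and at 630.1 CPM in primary stavudine replicate 2, where the other 9 tumors lay between 214 and 352. Dll1 was high in the same pair of tumors, at 456 and 146 CPM, and at 131 CPM in recurrent 17-DMAG plus stavudine replicate 1, while the other tumors had 40.2 to 88.6. Hes2, which did not pass the filter on low counts, had 317 counts in recurrent 17-DMAG plus stavudine replicate 1 and 0 to 6 in every other library.

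Of other targets on the list, Myc ranged from 68.6 to 115 CPM in tumors (61.7 and 89.2 in the glands; log2 difference 0.09, edgeR adjusted p = 0.780) and Hes6 from 7.88 to 12.0 (-0.10, adjusted p = 0.754). Heyl ran from 1.83 to 7.25 CPM in tumors and was 4.61 and 4.10 in the glands (-0.09, adjusted p = 0.926). These were also chosen after their values were seen.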
